A study of Homo sapiens with 6 samples.

Results

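The interferon regulatory factors (IRFs) are transcription factors that share a tryptophan-rich DNA-binding domain and bind the interferon-stimulated response elements of antiviral and immune genes. The genes were taken as the rows of the deposited table named IRF1, IRF2, IRF3, IRF4, IRF5, IRF7, IRF8 or IRF9. Of these 8 genes, 7 had a row among the 31999 genes listed, and IRF8, for which there was no matching row, was not analysed here. The RNA came from HEL cells, a human erythroleukemia cell line, transduced with lentiviral hairpins and, by the study's methods, selected with puromycin. There were 3 libraries with a control hairpin (shCtrl) and 3 with hairpin RNA against TMIGD2 (shTMIGD2). TMIGD2 is an immune receptor of T and NK cells that the study examined on leukemia cells. Which TMIGD2 hairpin the shTMIGD2 libraries carried is not given by the labels, and the study's methods list 3. The values used here are 1 mean level per gene over the 6 libraries, as the authors computed it, in log2 CPM, where CPM are counts scaled to 1000000 per library. No spread between libraries can be given for such a mean, and a difference between shTMIGD2 and shCtrl cells was not analysed here. The read depth of each library is unknown from these values.

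In resting cells IRF3 waits in the cytoplasm until kinases downstream of nucleic acid sensors phosphorylate it, after which it drives the first interferon beta transcription, and IRF7 amplifies the response. IRF9 joins STAT2 in the complex ISGF3, which carries the signal of type I interferon to the genes. IRF1 activates and IRF2 mostly represses the same elements, IRF5 acts below Toll-like receptors, and IRF4 and IRF8 are known for their work in lymphocytes, macrophages and dendritic cells, often together with the ETS factor PU.1 (gene SPI1).

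The coding sequences are shown first because they carry what makes these genes a family. For 6 of the 7 genes the coding sequence of the canonical transcript (GENCODE 44, GRCh38) was printed from the first to the third TGG codon, the codon of tryptophan, with the TGG codons in capitals. Each stretch has 84 bases on the strand of the gene. The IRF1 stretch starts at codon 11 and lies in exons 2 to 3, the IRF2 stretch likewise, the IRF3 stretch at codon 11 in exon 2, and the IRF4, IRF7 and IRF9 stretches start at codons 27, 17 and 15, in exon 3 for IRF7 and in exon 2 for the others.
IRF1: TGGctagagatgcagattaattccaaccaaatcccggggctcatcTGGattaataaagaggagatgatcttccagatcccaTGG
IRF2: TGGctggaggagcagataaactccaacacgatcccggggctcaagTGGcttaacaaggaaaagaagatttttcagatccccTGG
IRF3: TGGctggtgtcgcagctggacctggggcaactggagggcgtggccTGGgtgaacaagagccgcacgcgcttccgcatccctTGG
IRF4: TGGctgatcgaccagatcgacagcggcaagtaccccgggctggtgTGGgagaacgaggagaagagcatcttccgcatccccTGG
IRF7: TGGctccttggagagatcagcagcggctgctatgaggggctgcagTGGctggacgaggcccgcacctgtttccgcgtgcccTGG
IRF9: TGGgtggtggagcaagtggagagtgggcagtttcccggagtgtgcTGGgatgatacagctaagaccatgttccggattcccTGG

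All 7 genes had 14 codons between the first and the second TGG and 11 codons between the second and the third. Within the first 100 codons this spacing was found in 22 of 20046 protein-coding sequences of the annotation, a share of 0.110%, and the 7 genes with a row were among the 22. IRF8 was also among them. Of the 6 stretches printed, the closest pair was IRF1 and IRF2, with 77.4% of the bases identical. The most distant pair was IRF1 and IRF7, with 42.9%. Over the full canonical transcripts, the longest exact run that any 2 of the 7 genes had in common was 18 bases, found between IRF5 and IRF7 in their coding sequences (catcttcaaggcctgggc) and between IRF2 and IRF9 outside them.

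In GRCh38 the genes lie on 7 chromosomes, with IRF1 at chr5:132440440-132508719, IRF2 at chr4:184385702-184474558, IRF3 at chr19:49659569-49665875 and IRF7 at chr11:612553-615983, all on the minus strand. IRF4 at chr6:391739-411443, IRF5 at chr7:128937457-128950038 and IRF9 on chromosome 14 are on the plus strand.

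By mean log2 CPM, 5 genes of the family lay above the median of protein-coding genes (3.63), with IRF7 only just above it. The level of IRF9, as counted, was below this median, and IRF4 was near the bottom of the table. IRF3, the first responder of the antiviral pathway, had the highest level at 75.1 CPM, a mean log2 CPM of 6.23. IRF1 had 59.0 CPM (mean log2 CPM 5.88) and its opponent IRF2 had 49.8 CPM (5.64). IRF5 had 28.4 CPM (4.83) and IRF7, the amplifier, 14.0 CPM (3.81). Below a wide gap came IRF9 at 0.951 CPM (-0.07), and then IRF4 at 0.11 CPM (-3.18). The lowest mean log2 CPM in the table was -3.76, shared by 154 genes, so that IRF4 lay only 0.59 above it on the log2 scale.

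IRF3, IRF1 and IRF2 were above 90.1%, 87.5% and 85.8% of the 31999 genes listed by mean log2 CPM. Against the 16649 protein-coding genes that could be matched, they were above 81.3%, 76.5% and 73.3%. IRF5 and IRF7 were above 62.6% and 51.5% of the protein-coding genes, IRF9 above 30.8% and IRF4 above 11.2%. A level of at least 1 CPM was reached by 5 of the 7 genes, all of them protein-coding, by 69.0% of the protein-coding genes and by 43.8% of all genes listed. The family's count was thus near that of protein-coding genes in general. IRF9 was just under this threshold, and the lowest gene above it was IRF7.

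Levels of different genes can be compared only per length, since a longer transcript gives more fragments. The canonical transcripts ranged from 1595 bases in IRF3 to 5314 bases in IRF4. Per kilobase of transcript, IRF3 led with 47.1 CPM per kilobase, 5.56 on the log2 scale. IRF2 followed with 22.1 CPM per kilobase (log2 4.46) and IRF1 with 16.6 (log2 4.05), so that these 2 genes changed places once length was taken into account. IRF5 had 9.80 CPM per kilobase and IRF7 had 7.28. IRF9 stood at 0.585 and IRF4 at 0.0208 CPM per kilobase. In the sum of the 7 genes per kilobase, IRF3 made up 45.5%, IRF2 21.3%, IRF1 16.0%, IRF5 9.47% and IRF7 7.03%.

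The steps between neighbours in this order were uneven. IRF3 was 2.13 times as high as IRF2 per kilobase, IRF2 was 1.33 times as high as IRF1, IRF1 1.69 times as high as IRF5 and IRF5 1.35 times as high as IRF7. The step from IRF7 to IRF9 was 12.4 times. IRF4 was lowest, but no fold is given for it, since its log2 CPM is close to the lowest in the table and its transcript is the longest of the 7. With 1 mean per gene, no test can say which of the smaller steps exceed the spread between libraries. The order of IRF1 and IRF2 also rests on the length chosen, because the canonical transcript of IRF1, with 3554 bases, is mostly non-coding. Per kilobase of coding sequence the highest gene was IRF1, at 5.92 on the log2 scale, with IRF3 at 5.87 and IRF2 at 5.57.

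**Figure D1:**
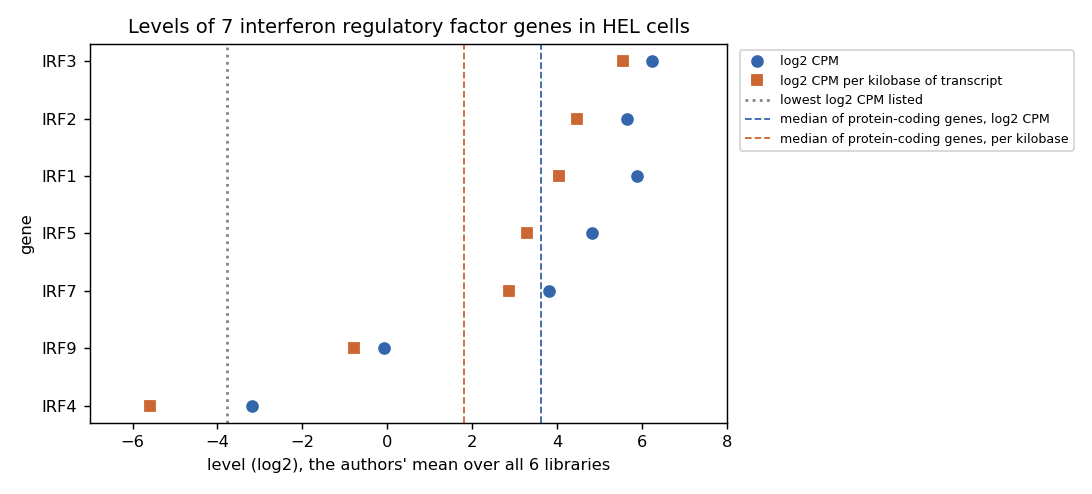
Mean level of each of the 7 genes over the 6 libraries, on the x axis as log2 CPM (circles) and as log2 CPM per kilobase of canonical transcript (squares), with the genes on the y axis in order of the latter. The dashed lines mark the medians of protein-coding genes on both scales (3.63 and 1.80) and the dotted line the lowest log2 CPM listed (-3.76). IRF3, IRF2, IRF1, IRF5 and IRF7 lie to the right of both medians, and IRF9 and IRF4 to the left.

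The canonical transcript of IRF9 shares most of its exons with another annotated gene. It lies on the plus strand of chromosome 14 from 24161234 to 24168043 (GRCh38, GENCODE 44), just downstream of RNF31, which codes for a subunit of the linear ubiquitin ligase LUBAC. A further protein-coding gene of the annotation, ENSG00000259529, runs on the same strand from 24147548 to 24166452 and joins exons of both. No listed gene could be matched to ENSG00000259529 by name, so whether the annotation used for counting held it is unknown. Of the 1626 bases of the canonical IRF9 transcript, 1513 (93.1%) lie in exons of that gene. Exons 1 to 8 of this transcript are shared in full. The 113 bases that are not shared all lie in exon 9, outside the coding sequence. The exons of all annotated IRF9 transcripts together cover 6471 bases, and of these only 23.9% are shared on the same strand. For RNF31, 98.6% of its 3502 canonical transcript bases are shared on the same strand, mostly with the same gene. Over all its annotated exons, 6713 bases, the share is 53.3%. None of the other 6 members has any transcript base in an exon of another gene on its own strand.

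RNF31 was low as well, at 0.4 CPM. A counting program such as HTSeq, in its default mode, gives no gene a fragment that lies in exons of 2 genes. The counting mode is not given in the sources used here, and the annotation named in the study's methods is refSeq, while the overlaps were computed in GENCODE 44. When each level was divided by the unshared bases of the canonical transcript alone, IRF9 came to 8.41 CPM per kilobase. This lay between IRF5 (9.80) and IRF7 (7.28), and RNF31 came to 8.01. The same CPM was divided by fewer bases, so both values had to rise. The division treats every counted fragment as coming from the unshared bases of the canonical transcript, which is not known. It leaves out the exons of the other annotated transcripts, which hold further unshared bases. Both values rest on only 113 and 50 bases, so their size is uncertain. Whether the shared exons account for the low IRF9 value was not tested.

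**Figure D2:**
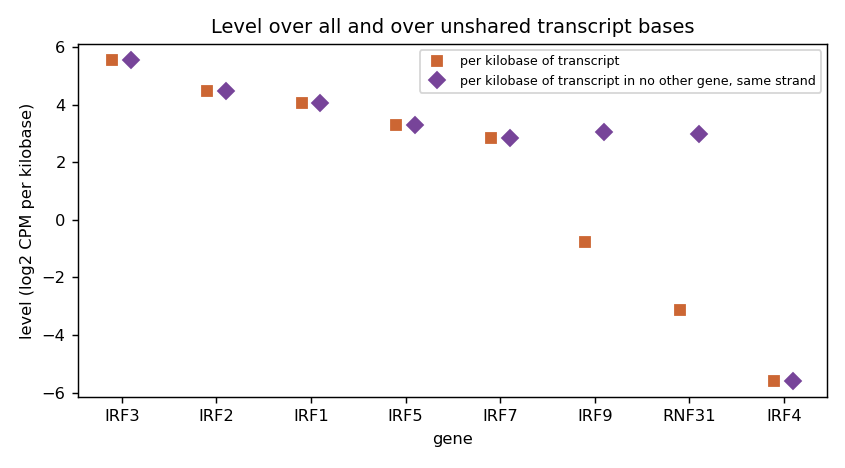
Level of the 7 genes and RNF31 (x axis) in log2 CPM per kilobase (y axis), over the whole canonical transcript (squares) and over the transcript bases that lie in no exon of another gene on the same strand (diamonds). The 2 symbols are level for 6 genes, while IRF9 goes from -0.77 to 3.07 and RNF31 from -3.13 to 3.00. The diamonds divide the same CPM by the same or fewer bases, so they cannot lie below the squares.

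Over all protein-coding genes the median level was lower in the classes with more sharing. It was 1.94 log2 CPM per kilobase for the 14632 genes with no shared transcript base, 1.64 for the 1510 genes with up to 50% shared, -0.29 for 304 genes with over 50% to 90% shared, and -2.13 for the 203 genes with over 90% shared. A level of at least 1 CPM was reached by 69.1% of the genes with no shared base and by 36.0% of those with over 90% shared. Of the 203 genes, 114 had at least 50 unshared bases. Their median was -2.06 per kilobase of transcript and 2.31 per kilobase of unshared bases. The second value had to be higher, since the same CPM was divided by fewer bases. The classes overlapped, with the middle 50% of genes from -2.71 to 4.07 at no sharing and from -3.90 to 0.21 at over 90%. RIGI, an RNA sensor listed under its older symbol DDX58, had 96.6% of its transcript shared and still 24.5 CPM. IRF9, at -0.77 per kilobase, was above the median of the genes shared as much as it is and below that of the unshared genes.

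**Figure D3:**
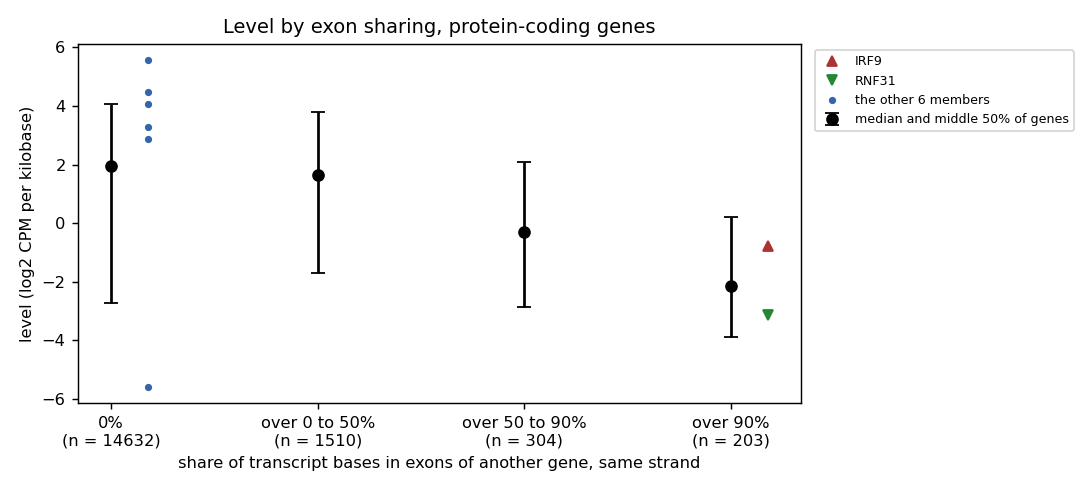
Level in log2 CPM per kilobase (y axis) of protein-coding genes in 4 classes by the share of their transcript bases in exons of another gene on the same strand (x axis, with the number of genes). Black points are medians and bars span the middle 50% of genes, with medians of 1.94, 1.64, -0.29 and -2.13. IRF9 and RNF31 are in the class over 90% and the other 6 members in the class at 0%.

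Genes on the opposite strand overlap 3 of the 7. BCL2L12, an apoptosis-related gene with a level of 54.8 CPM, covers 14.2% of the IRF3 transcript from the other strand. IRF1 is covered over 16.3% of its transcript, by IRF1-AS1, its antisense RNA, or by a neighbouring gene on that strand, and IRF9 over 18.9%. The library kit was directional, but whether strand was used in counting is not given in the sources used here. Part of the IRF1, IRF3 and IRF9 values is therefore uncertain. IRF2, IRF4, IRF5 and IRF7 share no transcript base with another gene on either strand.

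Promoter windows from 250 bases before to 50 after the start site were taken from RefSeq (GRCh38.p14) for IRF1, IRF4, IRF5 and IRF9, and there were none for IRF2, IRF3 and IRF7. They were searched on both strands for the interferon gamma activation site (GAS), TTCNNNGAA, an element of genes that respond to interferon gamma. It was present in the windows of IRF1 and IRF9 and in 7.66% of all 35116 windows. The matches are printed on the strand of each gene with the element in capitals, since both genes are known interferon targets. The IRF1 match lies at chr5:132490881-132490905 on the minus strand, with the element starting 124 bases before the start site, and the IRF9 match at chr14:24161194-24161218 on the plus strand, 63 bases before it.
IRF1: agcctgatTTCCCCGAAatgacggc
IRF9: cacgtgatTTCTGGGAAaaggccct

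No window of IRF4 or IRF5 held the GAS letters, and no window of the 4 genes held the core of the interferon-stimulated response element, searched as GAAA, 2 bases of any kind and GAAA, which was present in 3.57% of all windows. The kappa B letters, GGG, 5 bases of any kind and CC, were present in 58.7% of all windows, in those of IRF1, IRF4 and IRF9 and in 2 of the 4 of IRF5. The single windows of IRF1 and IRF4 were rich in CpG, with 36 and 32 CpG dinucleotides against a median of 14 over all windows. The IRF9 window had 7, and the 4 windows of IRF5, one for each of its start sites, had between 5 and 34. IRF1, at 16.6 CPM per kilobase, and IRF4, at 0.0208, thus differed widely in level while both had windows above the median in CpG.

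The genes around the IRFs in the pathway differed by list in how many reached 1 CPM, a level that 69.0% of all protein-coding genes reached. The lists were written from general knowledge, and all values are log2 CPM per kilobase of transcript. The median of the 7 IRFs was 3.29, against 1.80 for the protein-coding genes. Of 9 interferon ligand genes only IFNL3 and IFNK were listed, at 0.34 and -3.79, and neither reached 1 CPM. All 6 interferon receptor subunits were listed and 5 reached 1 CPM. Of these, IL10RB was just above the threshold at 1.11 CPM. On the same strand, 89.2% of the IL10RB transcript and 49.1% of the IFNAR2 transcript lie in exons of other genes, so both values are uncertain. IFNAR1, of the type I receptor, led with 4.65, followed by IFNGR1 of the interferon gamma receptor with 4.30. IFNLR1, the specific subunit of the lambda receptor, was lowest with -5.76, at 0.0842 CPM and so near the lowest level in the table.

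The kinases and STATs that pass the signal from receptor to IRF9 were high. All 5 reached 1 CPM, with a median of 5.81. JAK1 was highest with 6.19 and STAT2 lowest with 4.18. IRF9, which joins STAT2 in ISGF3, was at -0.77 on this scale as counted, below STAT2. Over the unshared bases of its canonical transcript alone it was at 3.07. The size of that value is uncertain, so the place of IRF9 against STAT2 is not settled.

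All 11 genes that activate IRF3 and IRF7 reached 1 CPM. IRAK1, the kinase below MYD88, led with 5.74, STING1, the adaptor of cytosolic DNA sensing, had 4.87 and TRAF6 was lowest with 0.66. IRF3 itself, at 5.56, was higher than every one of them but IRAK1. Of 7 nucleic acid sensors 4 reached 1 CPM. CGAS, the cytosolic DNA sensor, had 3.77 and IFIH1, the double-stranded RNA sensor MDA5, had 2.78. TLR7, TLR8 and TLR9, receptors of endosomal nucleic acids, were all at 0.0789 CPM, near the lowest level in the table. Of the TLR9 transcript, 99.7% lies in exons of another gene on the same strand, so its value is uncertain in the way of IRF9. TLR7 and TLR8 share no transcript base on their strand.

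Among 7 DNA-binding partners, SPI1 was highest with 6.40. SPI1, with which IRF4 and IRF8 form complexes, was thus present at 116 CPM, while IRF4 was at 0.11 CPM. TCF3 had 4.88, and SPIB, the lymphoid relative of SPI1, was lowest with -4.03. The 3 corepressors of IRF2 were all expressed, with IRF2BP2 at 4.46, IRF2BP1 at 4.45 and IRF2BPL at 2.99, and IRF2 at 4.46 stood beside the first. All 6 negative regulators reached 1 CPM, with SOCS3, an inhibitor of cytokine receptor signaling, at 4.97 and SOCS1, its relative, lowest at 1.97. Of 13 textbook targets of IRFs 12 reached 1 CPM, but their median of 2.09 was near the 1.80 of protein-coding genes. B2M and PSMB9, of antigen presentation, were highest with 10.5 and 7.02, and CXCL10, the chemokine, was lowest with -3.10.

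**Figure D4:**
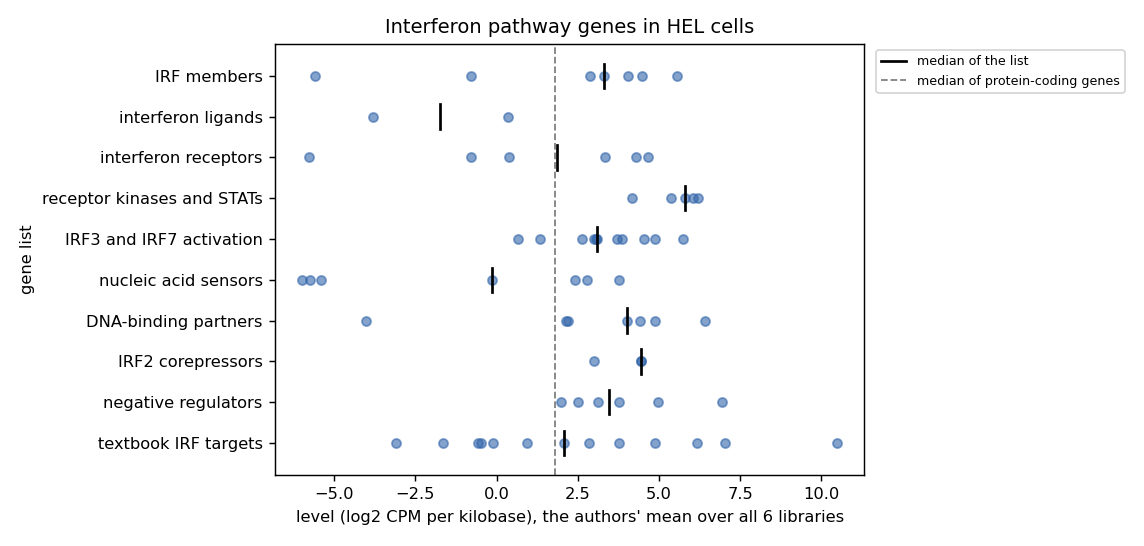
Level of each gene (x axis, log2 CPM per kilobase, mean over the 6 libraries) in the IRF family and 9 pathway lists (y axis), with a short black line at the median of each list and a dashed line at the median of protein-coding genes (1.80). The receptor kinases and STATs lie between 4.18 and 6.19, while the IRFs spread from -5.59 to 5.56. The lower end is IRF4, whose log2 CPM is close to the lowest listed and whose transcript is the longest of the IRFs.

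The cells carried the markers of their label. All 6 erythroid markers reached 1 CPM, with HBG1, a fetal globin, at 846 CPM and GATA1 at 251 CPM, and so did the 3 megakaryocyte markers. Since HBG1 and its copy HBG2 differ little in sequence, how fragments were divided between them is uncertain. Of the lymphoid markers MS4A1, CD3D and CD3E had no row and CD79A was at 5.01 CPM. The plasmacytoid dendritic cell marker LILRA4 was at 0.0789 CPM and CLEC4C had no row. Of the monocyte markers CD14 was at 0.157 CPM, CSF1R at 1.19 and LYZ at 21.2. TMIGD2 was at 16.9 CPM over the 6 libraries, a mean that mixes shCtrl and shTMIGD2 libraries and so is no check of the knockdown.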

How the data were processed

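Poly(A) RNA of 3 shCtrl and 3 shTMIGD2 HEL libraries was sequenced, and samples were grouped by their titles. The submitters' processing notes name STAR 2.6.1b, HTSeq 0.6.1, DESeq2 3.11 and edgeR with hg38, and the paper's methods describe fragment counts per gene in a refSeq annotation. The authors' deposited table gives for each gene a mean log2 CPM over all libraries, whose settings are not stated, and the authors' own comparison of the groups (log2 fold change, F statistic, p-value and adjusted p-value). These 4 columns were not used, so no test was made and the planned tests between groups were not run. The mean log2 CPM was converted to CPM, which summed to 1002510 over the genes. The CPM was divided by the length of the canonical transcript, its coding sequence or its unshared bases in GENCODE 44. Of the genes listed, 73.0% matched 1 gene by symbol or by an older symbol, and the matched protein-coding genes served as background. Overlap, percentile and common-run functions were checked on simulated data with Python 3.11.15. The members and lists were chosen with earlier results of these data known. Of each list, the 2 highest genes and the lowest per kilobase were to be named. RNF31, BCL2L12, RIGI, IFNAR2, IL10RB, TLR8 and TLR9 were named after their values were seen. The analysis of shared exons was added after the IRF9 level was seen. Some genes of the lists and 1 sequence are not reported here.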

Additional observations from a re-analysis of the deposited data

How the results depend on the processing

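No paired analysis was possible because the table used here holds no values per library. For the same reason the block on replicate number, leaving out each library and DESeq2 in place of edgeR were not run. The highest level per kilobase was 5.56 (IRF3) with transcript length, 5.92 (IRF1) with coding length and 6.23 (IRF3) with no division by length. With unshared bases only, chosen after seeing the data, it was again 5.56 (IRF3). The number of IRF genes at or above the threshold was 5 at 1 CPM, 6 at 0.5 CPM and 5 at 5 CPM. Above the median lay 6 of the 7 with all genes listed, 5 with protein-coding genes only and 4 with genes at or above 0.5 CPM only. All 14 recomputed percentiles of single genes were lower than against all genes listed, since both backgrounds hold fewer low genes. Read depth is unknown, and IRF4 lies only 0.59 above the lowest log2 CPM listed.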
